A study of Mus musculus with 47 samples.

Results

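The genes described here are 51 developmental regulators of the homeobox and paired-box families that lie outside the Hox clusters, out of 35856 gene symbols measured. They were chosen by name, as regulators of forebrain, midbrain and hindbrain boundary, neurons, ear, mesenchyme, heart, gut and caudal neural tissue of the kind that Polycomb complexes occupy, and the rule uses no measured value. The choice was nevertheless made with earlier results of these data known, as was that of the lists used below. The series holds 47 libraries of polyadenylated RNA in 16 groups, of which 8 are mouse embryonic stem cells (ESC) and 8 are neural progenitor cultures (NPC) made from such cells. Every line was derived from C57BL/6 ESC and carried Tir1, an F-box protein of plants that hands degron-tagged proteins to the proteasome when auxin is present. The SUZ12-AID line carried the degron on SUZ12, the MTF2-AID line on MTF2 and the AID-JARID2 line on JARID2, and the untagged line carried Tir1 alone, so that the controls also express Tir1. How many clones stand for a line is not stated. ESC were kept in N2B27 with 100 U/ml LIF, 3 µM CHIR99021 (a GSK3 inhibitor) and 1 µM PD0325901 (a MEK inhibitor), and auxin (indole-3-acetic acid, 50 µM) was given for 12 hours. NPC were made by plating for 12 hours, then 10 ng/ml bFGF for 72 hours and SAG, a Smoothened agonist that turns on Hedgehog signalling, at 500 nM for 48 hours, and auxin was given for 5 days. Each group held 3 biological replicates per the series design, except SUZ12 NPC with auxin, which held 2.

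Homeobox and paired-box proteins bind DNA and set the identity of a region or cell type, and most are silent outside the tissue they specify. In cells that do not use them, their CpG-rich promoters are commonly covered by histone H3 lysine 27 trimethylation, which Polycomb repressive complex 2 (PRC2) deposits. SUZ12 holds the core of PRC2 together, while MTF2 and JARID2 are accessory subunits of different PRC2 forms and help to bring the complex to its targets. Hedgehog signalling, as supplied by SAG, ventralises neural tissue of the hindbrain and spinal cord, where most forebrain, mesenchymal and cardiac members of these families are normally off.

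The promoter windows of genes with the largest rises and the largest falls after SUZ12 loss in NPC are shown first, since CpG density is the sequence feature most tied to PRC2 targeting. Each window runs from 250 bases before to 50 bases after the RefSeq start of the gene (GRCm38.p6), is written 5′ to 3′ on the gene's strand and has each CG dinucleotide in capitals. CG reads the same on both strands. Nkx2-5, Prrx1 and Barx1 were the genes with the largest rises among those with a window in the table, and their windows lie at chr17:26841516-26841815 (minus strand), chr1:163313601-163313900 (minus strand) and chr13:48662786-48663085 (plus strand).
Nkx2-5: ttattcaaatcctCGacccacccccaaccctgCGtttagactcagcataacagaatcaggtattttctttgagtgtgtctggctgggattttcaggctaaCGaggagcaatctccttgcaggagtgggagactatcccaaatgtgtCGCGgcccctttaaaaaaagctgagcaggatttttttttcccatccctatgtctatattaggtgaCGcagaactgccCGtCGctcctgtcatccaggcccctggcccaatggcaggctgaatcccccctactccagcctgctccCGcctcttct
Prrx1: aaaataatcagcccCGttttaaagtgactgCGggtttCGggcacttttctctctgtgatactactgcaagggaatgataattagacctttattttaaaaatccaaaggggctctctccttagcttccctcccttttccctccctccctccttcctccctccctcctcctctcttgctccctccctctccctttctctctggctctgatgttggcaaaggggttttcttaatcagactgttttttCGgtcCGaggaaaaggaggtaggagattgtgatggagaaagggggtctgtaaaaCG
Barx1: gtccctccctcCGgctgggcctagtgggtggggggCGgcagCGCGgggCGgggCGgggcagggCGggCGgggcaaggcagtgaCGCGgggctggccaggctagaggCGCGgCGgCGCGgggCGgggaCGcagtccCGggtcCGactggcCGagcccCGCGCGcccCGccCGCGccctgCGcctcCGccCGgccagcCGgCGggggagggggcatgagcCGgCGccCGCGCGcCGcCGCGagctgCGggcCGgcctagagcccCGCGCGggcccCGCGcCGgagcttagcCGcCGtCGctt
Nkx1-1, Otp and Nkx1-2 were the genes with the largest falls, with windows at chr5:33434041-33434340 (minus strand), chr13:94875386-94875685 (plus strand) and chr7:132599588-132599887 (minus strand).
Nkx1-1: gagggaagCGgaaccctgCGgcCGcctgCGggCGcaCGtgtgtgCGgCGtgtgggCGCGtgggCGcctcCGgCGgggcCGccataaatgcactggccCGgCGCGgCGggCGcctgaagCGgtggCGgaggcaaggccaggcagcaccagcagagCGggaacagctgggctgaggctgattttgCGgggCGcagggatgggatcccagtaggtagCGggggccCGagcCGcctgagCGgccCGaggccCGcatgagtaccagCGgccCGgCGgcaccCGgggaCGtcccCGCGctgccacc
Otp: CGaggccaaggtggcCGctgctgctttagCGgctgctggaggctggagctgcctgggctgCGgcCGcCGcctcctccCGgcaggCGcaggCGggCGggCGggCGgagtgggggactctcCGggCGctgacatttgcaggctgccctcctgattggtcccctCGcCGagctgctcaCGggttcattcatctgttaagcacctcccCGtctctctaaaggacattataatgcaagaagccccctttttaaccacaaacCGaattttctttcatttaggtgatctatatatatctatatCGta
Nkx1-2: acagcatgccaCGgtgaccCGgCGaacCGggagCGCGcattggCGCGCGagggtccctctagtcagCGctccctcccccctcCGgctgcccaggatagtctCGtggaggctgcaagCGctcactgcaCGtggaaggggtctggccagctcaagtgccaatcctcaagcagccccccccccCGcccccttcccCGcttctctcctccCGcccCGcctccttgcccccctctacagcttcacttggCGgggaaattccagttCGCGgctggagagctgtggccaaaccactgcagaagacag
These windows held 9 CG in Nkx2-5, 6 in Prrx1, 50 in Barx1, 37 in Nkx1-1, 20 in Otp and 21 in Nkx1-2, so both risers and fallers included CpG-dense windows. Of these 3 risers 2 were below 10, whereas 13 of all 15 risers with a window held at least 10. A window was found for 40 of the 51 genes, with a median of 19.5 CG and at least 10 CG in 80.0% of them. Over all 32851 windows in the table the median was 7 CG, 43.5% held at least 10 CG, and 94.6% held 1 or more. Among the matched genes, those higher after SUZ12 loss in NPC had a median of 18 CG (15 genes), those lower 20 (7 genes) and those tested but not called 26 (6 genes). Genes not tested had a median of 15 CG (12 genes). At least 10 CG were held by 86.7% of those higher, 85.7% lower, 83.3% not called and 66.7% not tested. Prrx1 and Hmx1, among those higher, were tested only because they are high in SUZ12 NPC with auxin, so their rises were built in. Against the GENCODE M21 gene models of the same build, the windows of Prrx1 (chr1:163245119-163313710), Barx1 (chr13:48662998-48666507), Otp (chr13:94875602-94885130) and Nkx1-2 (chr7:132594878-132599637) span the start of the gene and its first exon begins inside them. The Nkx1-1 window lies just upstream of its gene (chr5:33430734-33433976), and the Nkx2-5 window lies inside the annotated interval of its gene (chr17:26838664-26845009), downstream of the outermost annotated start. The RefSeq start need not be the start used in these cells, and a CG count describes letters only.

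The read numbers recovered from the deposited values come to between 3.24 and 8.71 M (M, 1000000) in a library. RNA of the targeted genes does not test a protein degron: Suz12 RNA was 167 and 160 TPM (transcript abundance per length, scaled to a fixed total in each library) in SUZ12 NPC with auxin, against 76.5, 79.5 and 77.5 TPM untreated, and Mtf2 and Jarid2 RNA were present in every library. SUZ12 NPC with auxin stood apart from all other NPC. Its summed level of 6 ESC markers was 546 to 559 TPM, against 11.8 to 17.3 TPM untreated, that of 7 neural progenitor markers 242 to 252 TPM, against 1600 to 1740 TPM, and that of 5 neuron markers 399 to 447 TPM, against 4260 to 4500 TPM. Marker sums of JARID2 NPC moved the same way over a smaller range, with ESC markers at 164 to 183 TPM with auxin and 49.9 to 65.2 TPM untreated, and neuron markers at 703 to 782 TPM and 2250 to 2690 TPM. MTF2 NPC had ESC markers at 54.0 to 65.3 TPM with auxin and 27.0 to 33.1 TPM untreated, and neuron markers at 2910 to 3020 TPM and 4070 to 4270 TPM. The part of these shifts in the results below was not tested. In such bulk samples, fewer cells of a type and less RNA per cell cannot be told apart.

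A gene was tested where it reached 1 TPM in at least 2 libraries of a stage, by limma on log2(TPM + 0.5), on which a change of a low gene appears smaller than it is, and was called at an adjusted p under 0.05. Of the 51 genes, 20 passed this filter in ESC and 37 in NPC, and 13 passed in neither stage. Their summed level was 299 to 317 TPM in SUZ12 NPC with auxin, the highest of all 16 groups, against 117 to 125 TPM in untreated SUZ12 NPC. It was 173 to 186 TPM in MTF2 NPC with auxin and 135 to 154 TPM untreated, 129 to 134 TPM in JARID2 NPC with auxin and 101 to 109.8 TPM untreated, and 104 to 116 TPM in untagged NPC with auxin and 96.7 to 117 TPM untreated. In SUZ12 NPC 29 of the 51 genes averaged 1 TPM or more with auxin, against 21 untreated. With auxin and untreated, the counts were 27 and 27 in MTF2 NPC, 19 and 16 in JARID2 NPC and 22 and 22 in untagged NPC. Over all genes, 14728 and 14720 reached 1 TPM in the 2 SUZ12 NPC libraries with auxin, against 14066 to 14089 in the untreated ones.

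**Figure D1:**
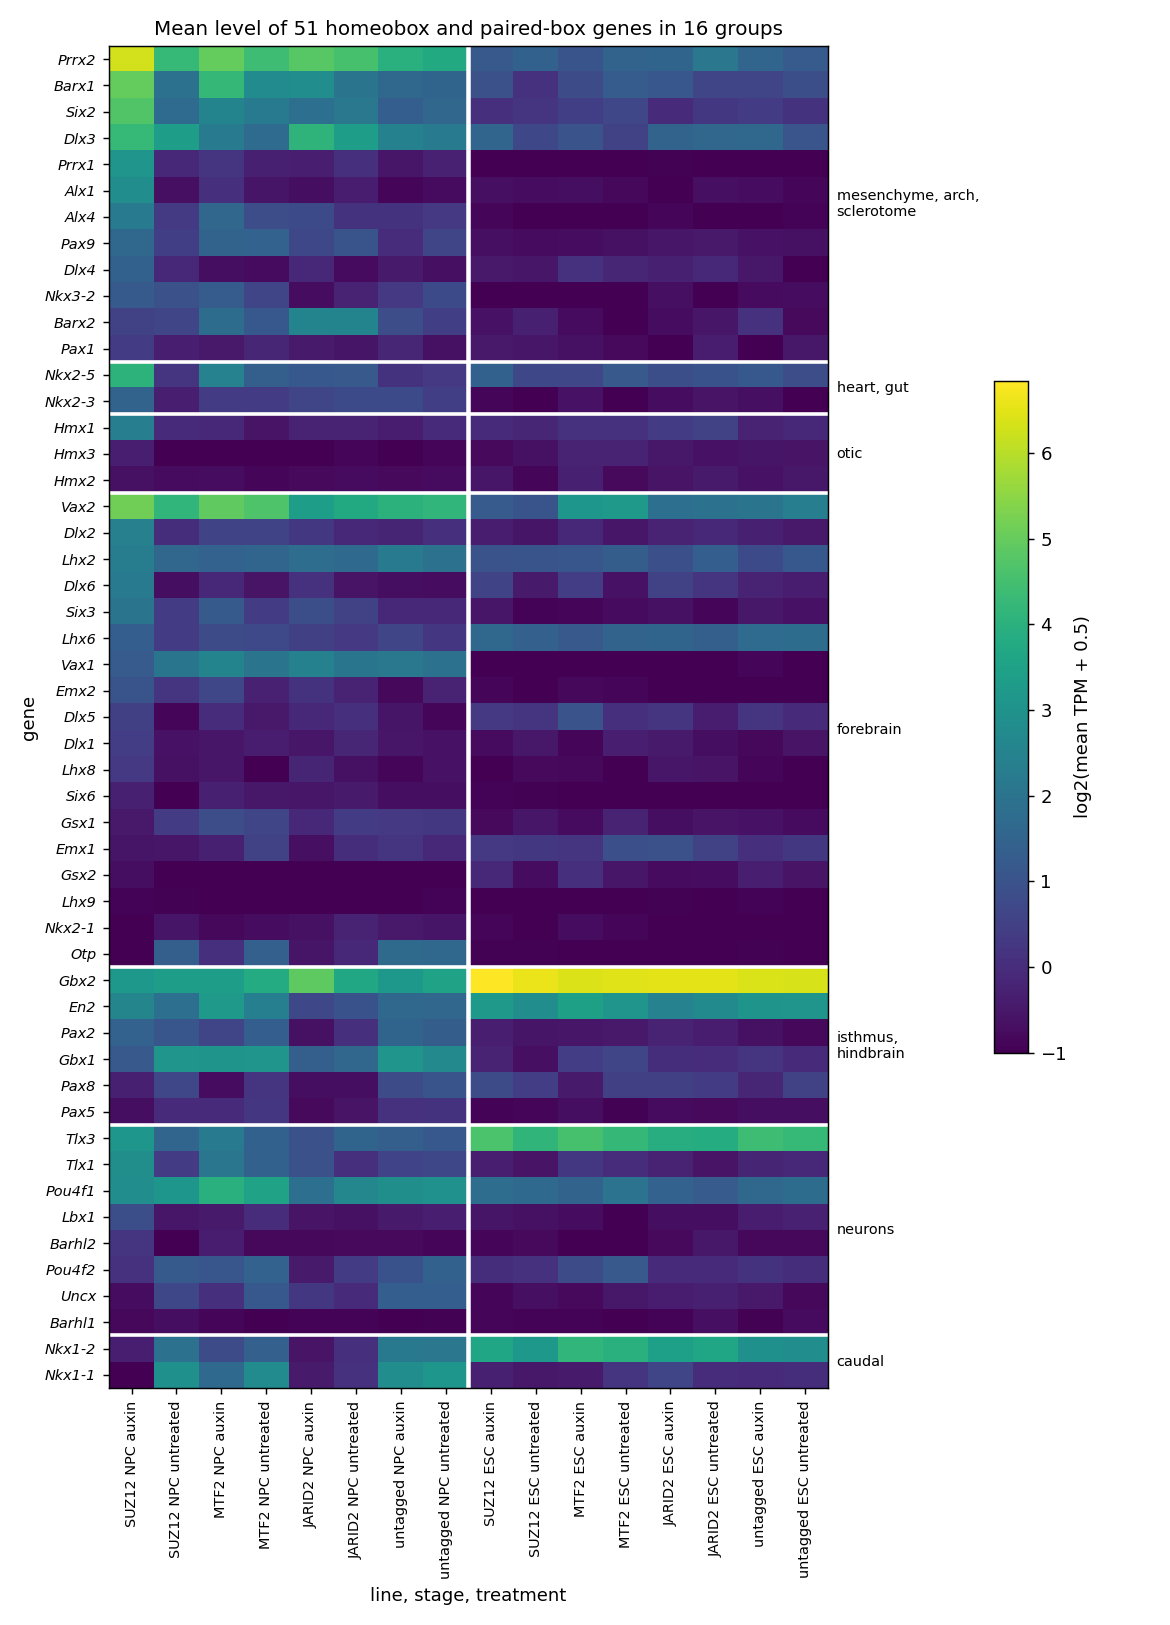
Mean level of each of the 51 genes (rows, grouped by role) in the 16 groups (columns, NPC left and ESC right, auxin left of untreated), coloured by log2(mean TPM + 0.5) over 3 libraries, or 2 in SUZ12 NPC with auxin. The SUZ12 NPC auxin column is brighter than its untreated neighbour for most mesenchymal rows, and Gbx2 and Tlx3 are the brightest rows in every ESC column.

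What loss of SUZ12 through the 5 days of differentiation does to these genes was asked by comparing SUZ12 NPC with and without auxin. Most tested genes of mesenchyme rose, as did both of heart and gut and the subpallial genes Dlx2 and Dlx6, most of them from low levels, while both caudal neural genes and the hypothalamic gene Otp fell. Of the 37 tested genes 21 were higher and 8 lower; of all 16469 genes tested, 56.9% were called, 23.9% higher and 33% lower. The median change of the 37 was 0.92 on the log2 scale, beside -0.10 over all genes. Dlx4, Dlx6, Alx1, Prrx1 and Hmx1 reached the filter only through the auxin libraries of this line and so had to be high there; among the other 32 tested genes 16 were higher and 8 lower, with a median change of 0.75. With no filter, 29 were higher and 8 lower. When either auxin library is left out, Dlx4, Dlx6, Alx1, Prrx1 and Hmx1 fall below the filter and are not tested. Over all 51 genes, the auxin libraries lay above every untreated library for 31 and below for 10, beside 23.7% and 27.2% of 27296 genes with any reads. Leaving out auxin replicate 2 left 19 calls, 13 higher and 6 lower, and median-of-ratios scaling, which moved the median of all genes by over 0.1 to 0.024, gave 22 higher and 8 lower.

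Regulators of mesenchyme, pharyngeal arches and sclerotome held the most rises: of 12 listed genes 11 were tested, 9 were higher and 0 lower, with a median log2 change of 1.94. With Alx1, Prrx1 and Dlx4 set aside, which were tested only because they are high in these auxin libraries, 6 of 8 were higher and the median was 1.59. Prrx2 and Prrx1 are paired-type factors of limb and craniofacial mesenchyme. Prrx2 had 79.8 and 76.5 TPM in the 2 SUZ12 NPC libraries with auxin, against 17.2, 18.2 and 20.3 TPM in the 3 untreated ones, and it was the most abundant of the 51 genes there (log2 2.05 ± 0.19, adjusted p = 9.13e-09). Prrx1 had 8.68 and 7.34 TPM with auxin, against 0.225, 0.592 and 0.501 TPM untreated (log2 3.20 ± 0.27, adjusted p = 2.11e-09). The groups were far apart in both genes. Barx1, which patterns arch mesenchyme, molar teeth and stomach, had 31.2 and 30.9 TPM with auxin, against 2.73, 4.29 and 2.84 TPM untreated (log2 3.08 ± 0.28, adjusted p = 6.01e-09). Six2, a factor of craniofacial mesenchyme and nephron progenitors, had 27.5 and 23.7 TPM with auxin, against 3.38, 2.20 and 2.90 TPM untreated (log2 2.98 ± 0.27, adjusted p = 4.10e-09). Both auxin libraries were several times above the highest untreated one in each. Alx1, needed for the frontonasal skeleton, had 7.34 and 6.05 TPM with auxin, against 0.243, 0 and 0.126 TPM untreated, where the untreated values are 3 reads in all (51.7 times as high, exact 95% counting interval 17.2 to 255; log2 3.54 ± 0.37, adjusted p = 5.06e-08). Its relative Alx4 rose by 1.94 on the log2 scale, the sclerotome and pharyngeal gene Pax9 by 1.23, and Dlx3 and its neighbour Dlx4, 15.2 kb apart on chromosome 11 and both used in arches and surface ectoderm, by 0.92 and 1.68; the call of Dlx3 was lost without auxin replicate 1 (adjusted p = 0.0776). Barx2, a regulator of cartilage and muscle, had 0.930 and 1.02 TPM with auxin, against 1.51, 0.435 and 1.18 TPM untreated and Nkx3-2, a sclerotome gene, 2.61 and 1.02 TPM with auxin, against 1.18, 1.35 and 1.71 TPM untreated, and in these 2 the groups overlapped. Beside this group, the summed level of 6 mesenchyme markers (Twist1, Twist2, Col1a1, Col1a2, Pdgfra and Col3a1) was 236 to 238 TPM with auxin, against 59.5 to 63.5 TPM untreated, and its part in the rise was not tested. The sum of 4 mesoderm markers was 125 to 127 TPM, against 4.72 to 8.99 TPM, and nearly all of it was the somite homeobox gene Meox1, with 124 TPM with auxin and 5.92 TPM untreated on average. The other mesoderm markers were low, with T at 0.782 TPM with auxin and 0.467 TPM untreated, Tbx6 at 1.02 and 0.553 TPM, and Mesp1 at 0 in both auxin libraries. Neural crest markers summed to 6.79 to 9.04 TPM with auxin, against 3.82 to 4.56 TPM untreated, surface ectoderm markers to 1.09 to 1.17 TPM, against 0 to 0.0509 TPM. The endoderm markers did not move together: the chemokine receptor gene Cxcr4, which neural cells also express, averaged 29.5 TPM with auxin, against 197 TPM untreated, while Gata4 averaged 13.4 TPM, against 1.28 TPM, Gata6 13.9 TPM, against 0.182 TPM, and Sox17 0.967 TPM, against 0.0882 TPM. Each of the 4 passed the test, Cxcr4 as a fall and the others as rises, so their sum of 56.8 to 58.7 TPM with auxin, against 188 to 214 TPM untreated, follows Cxcr4.

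Both listed genes of heart and gut rose. Nkx2-5, the cardiac NK2 factor, had 15.4 and 17.2 TPM with auxin, against 0.595, 0.685 and 0.617 TPM untreated, and this was the largest rise of the 51 genes (log2 3.89 ± 0.39, adjusted p = 2.67e-08). Nkx2-3, a gene of gut and spleen mesenchyme, had 2.17 and 2.42 TPM with auxin, against 0.320, 0.553 and 0 TPM untreated (log2 1.89 ± 0.41, adjusted p = 0.000442). The 2 auxin libraries stood above all 3 untreated ones in both. Of the 3 ear and sensory placode genes, Hmx1 was tested, through these auxin libraries alone, and had 4.12 and 4.99 TPM with auxin, against 0.577, 0.531 and 0.239 TPM untreated (log2 2.43 ± 0.42, adjusted p = 4.76e-05), while Hmx2 and Hmx3 stayed under 0.5 TPM in every library of this comparison.

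The forebrain list split. Of 18 genes 11 were tested, 7 were higher and 2 lower, with a median log2 change of 0.88; without Dlx6, tested only through these auxin libraries, 6 of 10 were higher and the median was 0.84. Dlx2 and Dlx6 act in GABAergic neurons of the subpallium and also in pharyngeal arches. Dlx2 had 5.22 and 4.44 TPM with auxin, against 0.684, 0.315 and 0.568 TPM untreated (log2 2.40 ± 0.36, adjusted p = 6.71e-06), and its neighbour Dlx1, 9.4 kb away on chromosome 2, had 1.12 and 0.538 TPM with auxin, against 0.0829, 0.191 and 0.172 TPM untreated and was below the filter. Dlx6 had 3.50 and 5.12 TPM with auxin, against 0.316, 0 and 0 TPM untreated, where the untreated group held 1 read (39.2 times as high, exact 95% counting interval 6.38 to 1610; log2 3.01 ± 0.46, adjusted p = 8.65e-06), and its neighbour Dlx5 had 0.583 and 1.19 TPM with auxin, against 0, 0 and 0.164 TPM untreated, also below the filter. In all 4 genes the auxin libraries lay above the untreated ones, at levels of 0.538 to 5.22 TPM. The antisense transcript Dlx6os1 was at 0.0981 to 0.258 TPM with auxin and at 0 untreated. Six3, an anterior forebrain and eye gene that lies 55.0 kb from Six2 on chromosome 17, had 3.41 and 3.67 TPM with auxin, against 0.894, 0.617 and 0.834 TPM untreated (log2 1.66 ± 0.28, adjusted p = 2.72e-05). Vax2, a ventral retina gene already on in these cultures, had 34.8 and 34.1 TPM with auxin, against 17.6, 16.4 and 17.9 TPM untreated (log2 0.97 ± 0.17, adjusted p = 3.79e-05). Lhx6, Emx2 and Lhx2, genes of interneurons, dorsal telencephalon and the eye and cortex, rose by 0.98, 0.88 and 0.79, calls that were lost in Lhx6 without auxin replicate 2 (adjusted p = 0.0857), in Lhx2 without auxin replicate 1 or 2 or untreated replicate 3 (0.0658 to 0.109) and in Emx2 without auxin replicate 1 or 2 or untreated replicate 1 or 2 (0.0659 to 0.136).

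Otp, a homeobox gene of hypothalamic neuroendocrine neurons, fell instead. It had 0 and 0 TPM with auxin, against 2.38, 1.95 and 1.99 TPM untreated, that is 0 reads against 156, at least 31.9-fold lower against a floor of 3 reads over the group (log2 -2.38 ± 0.24, adjusted p = 2.54e-08). Vax1, a ventral forebrain and optic stalk gene, fell by a smaller amount, to 1.84 and 1.94 TPM with auxin, against 4.29, 3.79 and 2.69 TPM untreated (log2 -0.75 ± 0.20, adjusted p = 0.00307). Gsx1, a gene of ganglionic eminences and dorsal interneurons, had 0.235 and 0.206 TPM with auxin, against 0.763, 0.658 and 0.990 TPM untreated and did not pass (adjusted p = 0.0518).

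Both caudal genes fell. Nkx1-1 and Nkx1-2 are NK1 factors of caudal neural tissue, and Nkx1-2 marks the pre-neural tube of the elongating embryo. Nkx1-1 had 0 and 0 TPM with auxin, against 6.91, 7.35 and 7.16 TPM untreated, that is 0 reads against 79, at least 16.1-fold lower, and had the largest fitted fall of the 51 genes (log2 -3.93 ± 0.34, adjusted p = 2.78e-09). Nkx1-2 had 0 and 0.577 TPM with auxin, against 4.27, 2.86 and 2.77 TPM untreated, that is 3 reads against 53, 10.8-fold lower with an exact 95% counting interval of 3.51 to 54.2 (log2 -2.35 ± 0.34, adjusted p = 3.90e-06). No auxin library of either gene reached the lowest untreated one. The annotated interval of Nkx1-2 overlaps Fgfr2, which was at 20.1 to 22.4 TPM with auxin and 15.6 to 16.1 TPM untreated.

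Genes of the isthmus and hindbrain had 0 rises and 2 falls among 5 tested, beside 23.9% higher and 33% lower over all genes. Gbx1, expressed in hindbrain and dorsal spinal cord, had 2.58 and 1.01 TPM with auxin, against 9.55, 7.24 and 7.25 TPM untreated (log2 -1.97 ± 0.60, adjusted p = 0.00975), a call that is lost without auxin replicate 2 (adjusted p = 0.132) and with a pseudocount of 0.1 (adjusted p = 0.0711). Pax8 fell by 0.97 on the log2 scale, a call lost without auxin replicate 1 or 2 or untreated replicate 3 (adjusted p = 0.0695 to 0.0906). Gbx2, which positions the border of midbrain and hindbrain, had 11 and 6.02 TPM with auxin, against 9.07, 10.1 and 10.1 TPM untreated (adjusted p = 0.249), Pax2, a gene of the same border, 2.35 and 2.15 TPM with auxin, against 1.84, 1.44 and 1.68 TPM untreated (adjusted p = 0.242), and En2 5.30 and 5.58 TPM with auxin, against 2.97, 2.86 and 3.57 TPM untreated (adjusted p = 0.0632); none of the 3 passed. Among neuronal genes 2 rose and 2 fell of 5 tested. Tlx1 and Tlx3 are related factors of hindbrain and spinal neurons, and Tlx1 also of spleen. Tlx1 had 7.25 and 6.37 TPM with auxin, against 1, 0.865 and 0.520 TPM untreated (log2 2.51 ± 0.30, adjusted p = 3.25e-07), and Tlx3 8.16 and 8.36 TPM with auxin, against 1.77, 2.54 and 2.98 TPM untreated (log2 1.60 ± 0.41, adjusted p = 0.00204). Uncx and the sensory and retinal neuron gene Pou4f2 fell by 1.45 and 1.06; Uncx lost its call without auxin replicate 2 (adjusted p = 0.0525) and Pou4f2 without auxin replicate 1 or untreated replicate 1 (0.158 and 0.0684). Pou4f1, its relative in sensory neurons, had 5.90 and 7.37 TPM with auxin, against 9.45, 7.53 and 7.35 TPM untreated (adjusted p = 0.0854).

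**Figure D2:**
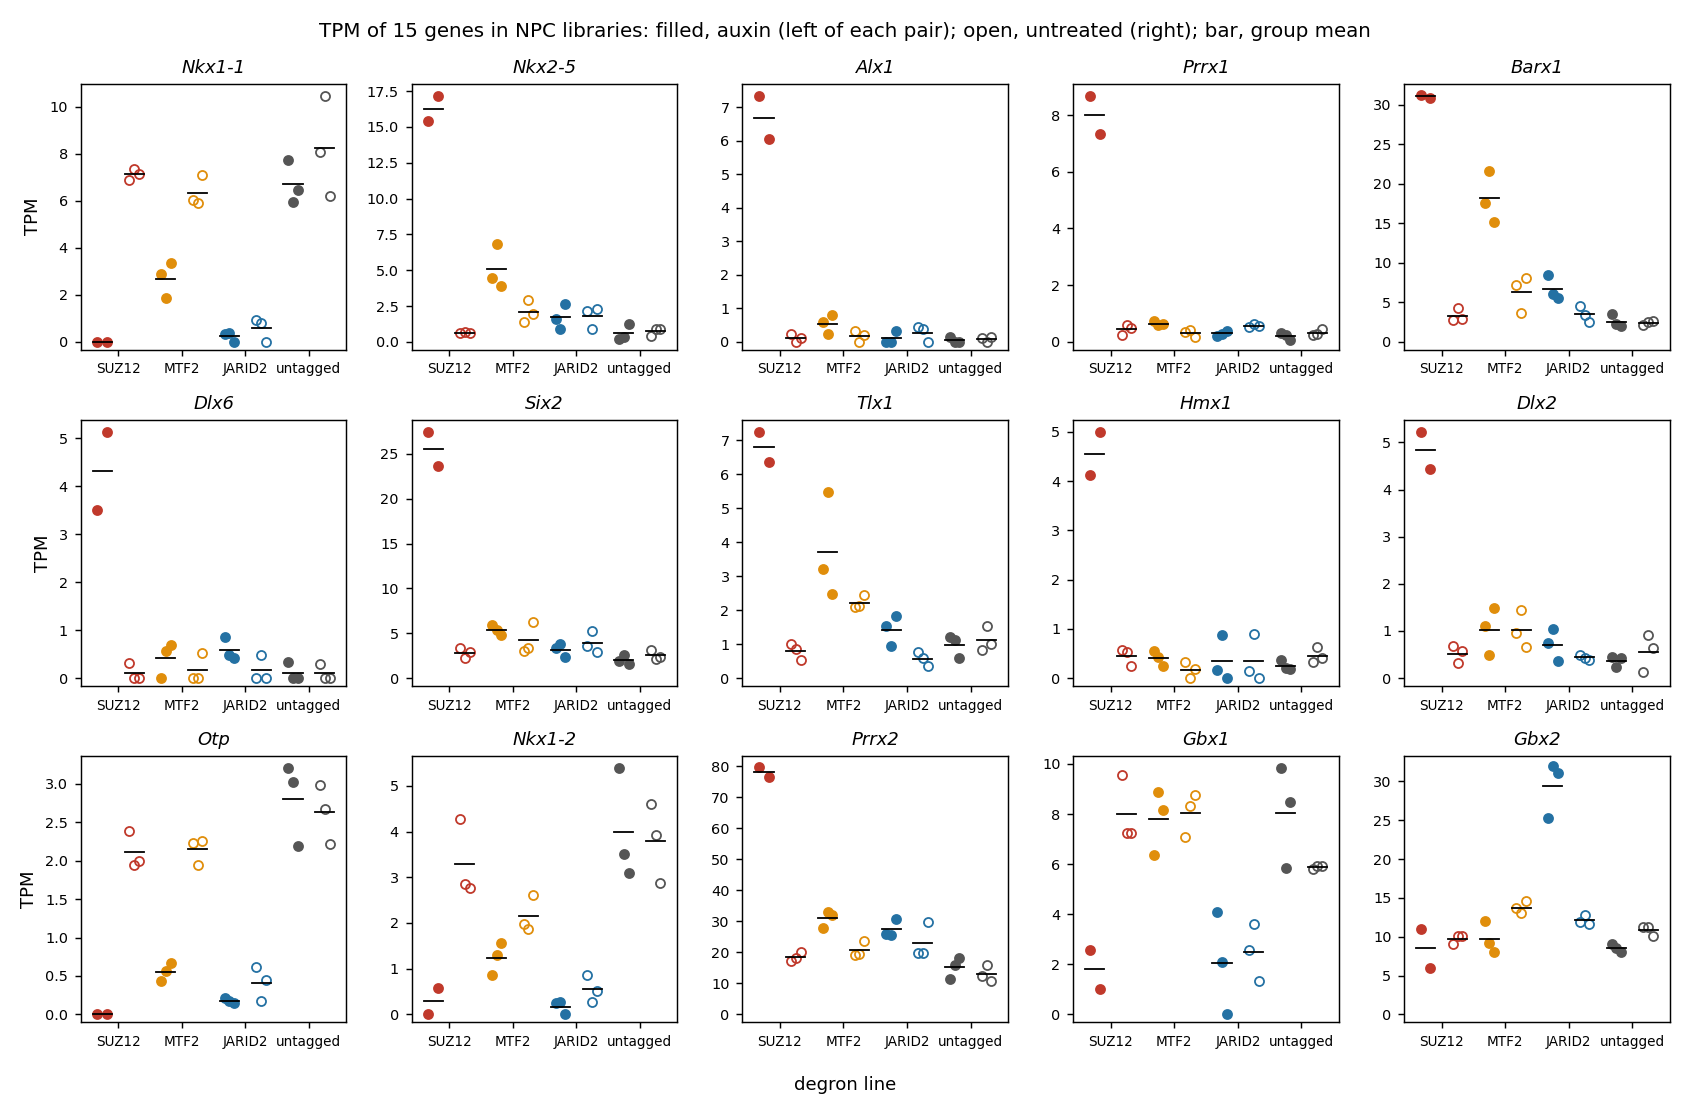
TPM (y axis, a linear scale of its own in each panel) of the 14 genes with the largest called changes in SUZ12 NPC and of Gbx2, one point per library, in the 4 lines (x axis), auxin filled and left, untreated open and right, with the group mean as a bar. SUZ12 auxin points stand alone at the top for Nkx2-5, Alx1, Prrx1, Six2, Hmx1 and Dlx2. They lie at 0 for Nkx1-1 and Otp, and for Nkx1-1 the JARID2 line also has points at 0. MTF2 auxin points lie between for Barx1 and Otp, and JARID2 auxin points are the high ones for Gbx2.

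Related homeobox genes outside the 51 moved in both directions. Of 65 listed relatives 50 were tested in SUZ12 NPC, 18 were higher and 23 lower, with a median log2 change of 0 beside -0.10 over all genes. Over all genes tested, 23.9% were higher and 33% lower. The largest falls were those of the ventral neural tube and motor neuron genes Lhx4 (-4.53 ± 0.14) and Nkx6-2 (-4.25 ± 0.07), and the largest rises those of the somite gene Meox1 (4.32 ± 0.17) and the hindlimb and jaw gene Pitx1 (4.05 ± 0.34). Of 12 tested PRC2 subunit genes 5 were higher and 4 lower, beside those same shares of all genes. The accessory subunit gene Phf19 rose by 2.40 ± 0.18 and the methyltransferase gene Ezh2 fell by 0.41.

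Auxin alone was controlled with the untagged line. In untagged NPC 0 of the 37 genes passed in limma, beside 0% of all genes; an unadjusted p under 0.05 was reached by 2 of the 37 and by 1180 genes in all. The voom test on recovered reads called 0 of the 37 and 18 genes in all. With that effect subtracted from the SUZ12 effect, 17 genes stayed higher and 6 lower, beside 43.5% of all genes called, 18.8% higher and 24.7% lower. With the 5 genes tested only through the SUZ12 auxin libraries set aside, for which a difference was built in, 13 of 32 were higher and 6 lower. The genes set aside are not tested when either SUZ12 auxin library is left out. The sizes were little altered, at 4.12 ± 0.52 for Nkx2-5, -3.68 ± 0.46 for Nkx1-1, 3.65 ± 0.50 for Alx1, 3.45 ± 0.37 for Prrx1 and 3.24 ± 0.36 for Six2. Without SUZ12 auxin replicate 2 the count was 15.

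Loss of the accessory subunit MTF2 was examined in the same way. Fewer genes moved, and those called in both lines moved as in the SUZ12 line. Of 37 tested, 5 were higher and 4 lower, beside 8.14% of all genes called, 5.03% higher and 3.11% lower, and the median change was 0.36 beside 0.03. Barx1 had 17.6, 21.7 and 15.2 TPM in MTF2 NPC with auxin, against 7.23, 3.66 and 8.11 TPM untreated (log2 1.50 ± 0.25, adjusted p = 0.000778). Otp had 0.432, 0.559 and 0.672 TPM with auxin, against 2.24, 1.94 and 2.26 TPM untreated (log2 -1.33 ± 0.21, adjusted p = 0.000509). The groups did not overlap in either gene, and both calls stood in every alternative run. Nkx1-1 had 2.87, 1.86 and 3.35 TPM with auxin, against 6.02, 5.92 and 7.09 TPM untreated (log2 -1.12 ± 0.31, adjusted p = 0.0256). Prrx2 had 28, 33 and 32.1 TPM, against 19.1, 19.3 and 23.6 TPM (log2 0.58 ± 0.17, adjusted p = 0.0381). Groups were separate in both, with smaller gaps than in the SUZ12 line.

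Other calls in MTF2 NPC were small. Emx2 rose by 1.03, Six3 by 0.85 and Pou4f1 by 0.47 (lost without auxin replicate 3 or untreated replicate 2, adjusted p = 0.0705 and 0.0847), and Pax8 fell by 0.97 and Pax2 by 0.74. Pax2 had 1.77, 0.801 and 0.642 TPM with auxin, against 2.03, 2.32 and 1.68 TPM untreated, and its adjusted p was 0.0495. Nkx2-5 had 4.46, 6.85 and 3.90 TPM, against 1.37, 2.92 and 1.94 TPM, which did not pass (adjusted p = 0.0523). Every auxin library of Nkx2-5 lay above every untreated one. The count of 9 was 3 without auxin replicate 2 or untreated replicate 2, 4 without untreated replicate 3, 5 without untreated replicate 1, and 5 with a pseudocount of 0.1. With the untagged effect subtracted, Barx1 (log2 1.45 ± 0.35, adjusted p = 0.0431) and Otp (log2 -1.41 ± 0.30, adjusted p = 0.0213) passed, beside 1.4% of all genes called, 1.07% higher and 0.328% lower. Of the 12 single libraries left out of that test in turn, 10 took at least 1 of the 2 calls away.

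JARID2 loss moved a partly different set. Of 37 tested genes 4 were higher and 2 lower, beside 25% of all genes called, 9.28% higher and 15.7% lower, and the median change was -0.07 beside -0.04. Gbx2 had 25.2, 31.9 and 31.1 TPM in JARID2 NPC with auxin, against 11.9, 12.8 and 11.7 TPM untreated (log2 1.24 ± 0.15, adjusted p = 3.19e-06), and the groups were far apart. Pou4f1 had 3.29, 3.46 and 2.58 TPM, against 5.61, 5.73 and 5.74 TPM (log2 -0.79 ± 0.12, adjusted p = 3.03e-05), with groups apart. Barx1 had 8.42, 6 and 5.57 TPM, against 4.55, 3.45 and 2.51 TPM (log2 0.85 ± 0.25, adjusted p = 0.016). Tlx1 and Dlx3 rose by 0.84 and 0.77, and Pax2, with 0.0996, 0.111 and 0.194 TPM, against 0.628, 0.567 and 0.424 TPM, fell by 0.71. Without auxin replicate 1 the calls left were 2, those of Gbx2 and Pou4f1. With the untagged effect subtracted the 2 that passed were again Gbx2 (log2 1.57 ± 0.22, adjusted p = 4.92e-05) and Pou4f1 (log2 -0.74 ± 0.17, adjusted p = 0.00541), in every alternative run, beside 9.04% of all genes called, 3.1% higher and 5.94% lower. The ESC marker sum given above was also higher with auxin in this line, and its part in the rise of Gbx2 was not tested.

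Untreated JARID2 NPC already differed from untreated untagged NPC. Of the 37 genes 3 were higher and 7 lower, beside 23.8% of all genes called, 11.8% higher and 12% lower. Nkx1-1 had 0.937, 0.790 and 0 TPM in untreated JARID2 NPC, against 8.08, 10.5 and 6.21 TPM in untreated untagged NPC (log2 -3.14 ± 0.31, adjusted p = 9.91e-08). Nkx1-2 had 0.869, 0.275 and 0.512 TPM, against 4.59, 3.93 and 2.88 TPM (log2 -2.05 ± 0.30, adjusted p = 2.25e-05), and Otp 0.611, 0.178 and 0.444 TPM, against 2.98, 2.68 and 2.22 TPM (log2 -1.80 ± 0.21, adjusted p = 1.47e-06). The 3 genes with the largest falls after SUZ12 loss were thus low in the JARID2 line before auxin was added. Pax8, Uncx, Pax2 and Pou4f2 were lower too, by 1.80, 1.39, 1.26 and 1.10 on the log2 scale. Barx2 was higher, with 3.69, 6.42 and 5.72 TPM, against 0.904, 0.835 and 0.874 TPM (log2 2.04 ± 0.29, adjusted p = 1.77e-05), as were Dlx3 (1.14) and Prrx2 (0.79). Neuron markers summed to 2250 to 2690 TPM in untreated JARID2 NPC, against 4220 to 4600 TPM in untreated untagged NPC, and their part in this was not tested.

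The untreated MTF2 and SUZ12 lines differed less from the untagged line. In MTF2 NPC 5 genes were higher and 0 lower, beside 8.76% of all genes called, 6.19% higher and 2.57% lower. They were Barx1 (1.17 ± 0.25), Pax9 (0.82 ± 0.25), Prrx2 (0.66 ± 0.17), Pou4f1 (0.55 ± 0.12) and Vax2 (0.52 ± 0.15). The count was 3 without MTF2 untreated replicate 1 and 2 without MTF2 untreated replicate 3 or untagged untreated replicate 3. In SUZ12 NPC 1 gene passed, Dlx3 (1.15 ± 0.24), beside 0.814% of all genes called, 0.668% higher and 0.146% lower, and it was lost without SUZ12 untreated replicate 1 or 2 or untagged untreated replicate 2 or 3.

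The 3 degron effects were set against each other by testing the differences. The SUZ12 effect was above the MTF2 effect for 16 genes and below it for 5, beside 43% of all genes called, 15.7% higher and 27.2% lower. With the 5 genes tested only through the SUZ12 auxin libraries set aside, since a SUZ12 excess was built into them, 11 of 32 were above and 5 below. The genes set aside are not tested when either SUZ12 auxin library is left out. The largest differences besides those 5 were in Nkx1-1 (-2.81 ± 0.46), Nkx2-5 (2.77 ± 0.52) and Six2 (2.62 ± 0.36), and the fitted values were 2.94 ± 0.50 in Alx1 and 2.68 ± 0.37 in Prrx1; without SUZ12 auxin replicate 1 the count of 21 was 13. Against the JARID2 effect the counts were 18 above and 6 below, beside 31.1% of all genes called, 13.5% higher and 17.6% lower, and 14 of 32 above and 6 below with the same 5 set aside. Nkx2-5 led (3.96 ± 0.52), and Alx1 and Prrx1, of the 5, had 3.88 ± 0.50 and 3.63 ± 0.37. Both caudal genes are among the 6 below, and both were already low in untreated JARID2 NPC. The MTF2 and JARID2 effects differed for Gbx2 (-1.73 ± 0.22) and Pou4f1 (1.25 ± 0.17), beside 9.64% of all genes called, 7.82% higher and 1.82% lower.

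Of the 21 genes higher after SUZ12 loss, 19 had a log2 change above 0 in MTF2 NPC and 13 in JARID2 NPC; of all 3931 genes higher after SUZ12 loss, 78.3% and 83.1% did. Called higher were 14.7% of those 3931 in MTF2 NPC and 32.4% in JARID2 NPC, and of all 5437 genes lower after SUZ12 loss 8.18% and 40.7% were called lower there. The 4 called in MTF2 NPC (Barx1, Emx2, Prrx2 and Six3) were 4 of 21 in the SUZ12 line and 4 of the 5 higher in the MTF2 line. The 3 called in JARID2 NPC (Barx1, Dlx3 and Tlx1) were 3 of 21 and 3 of 4. The 21 include Alx1, Dlx4, Dlx6, Hmx1 and Prrx1, tested only because they are high in SUZ12 NPC with auxin. Low levels in MTF2 and JARID2 NPC were thus built into these 5. With them set aside, the calls were 4 of 16 in MTF2 NPC and 3 of 16 in JARID2 NPC. Of the 8 genes lower after SUZ12 loss, 3 fell in MTF2 NPC (Nkx1-1, Otp and Pax8, of 4 that fell there) and 0 in JARID2 NPC. Among the 8, Nkx1-1, Nkx1-2, Otp, Pax8, Pou4f2 and Uncx were already lower in untreated JARID2 NPC than in untreated untagged NPC. That left less room for a fall with auxin in the JARID2 line. Barx1 was called in all 3 lines, and its auxin libraries did not overlap between lines: 30.9 to 31.2 TPM in SUZ12, 15.2 to 21.7 TPM in MTF2 and 5.57 to 8.42 TPM in JARID2 NPC, against 1.97 to 3.49 TPM in untagged NPC. These levels also hold differences present before auxin. Barx1 was already at 3.66 to 8.11 TPM in untreated MTF2 NPC, higher than in untreated untagged NPC (log2 1.17 ± 0.25). Its SUZ12 effect was above its MTF2 effect (log2 1.58 ± 0.38, adjusted p = 0.0019), while its MTF2 effect was not shown to differ from its JARID2 effect (log2 0.65 ± 0.35, adjusted p = 0.28).

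**Figure D3:**
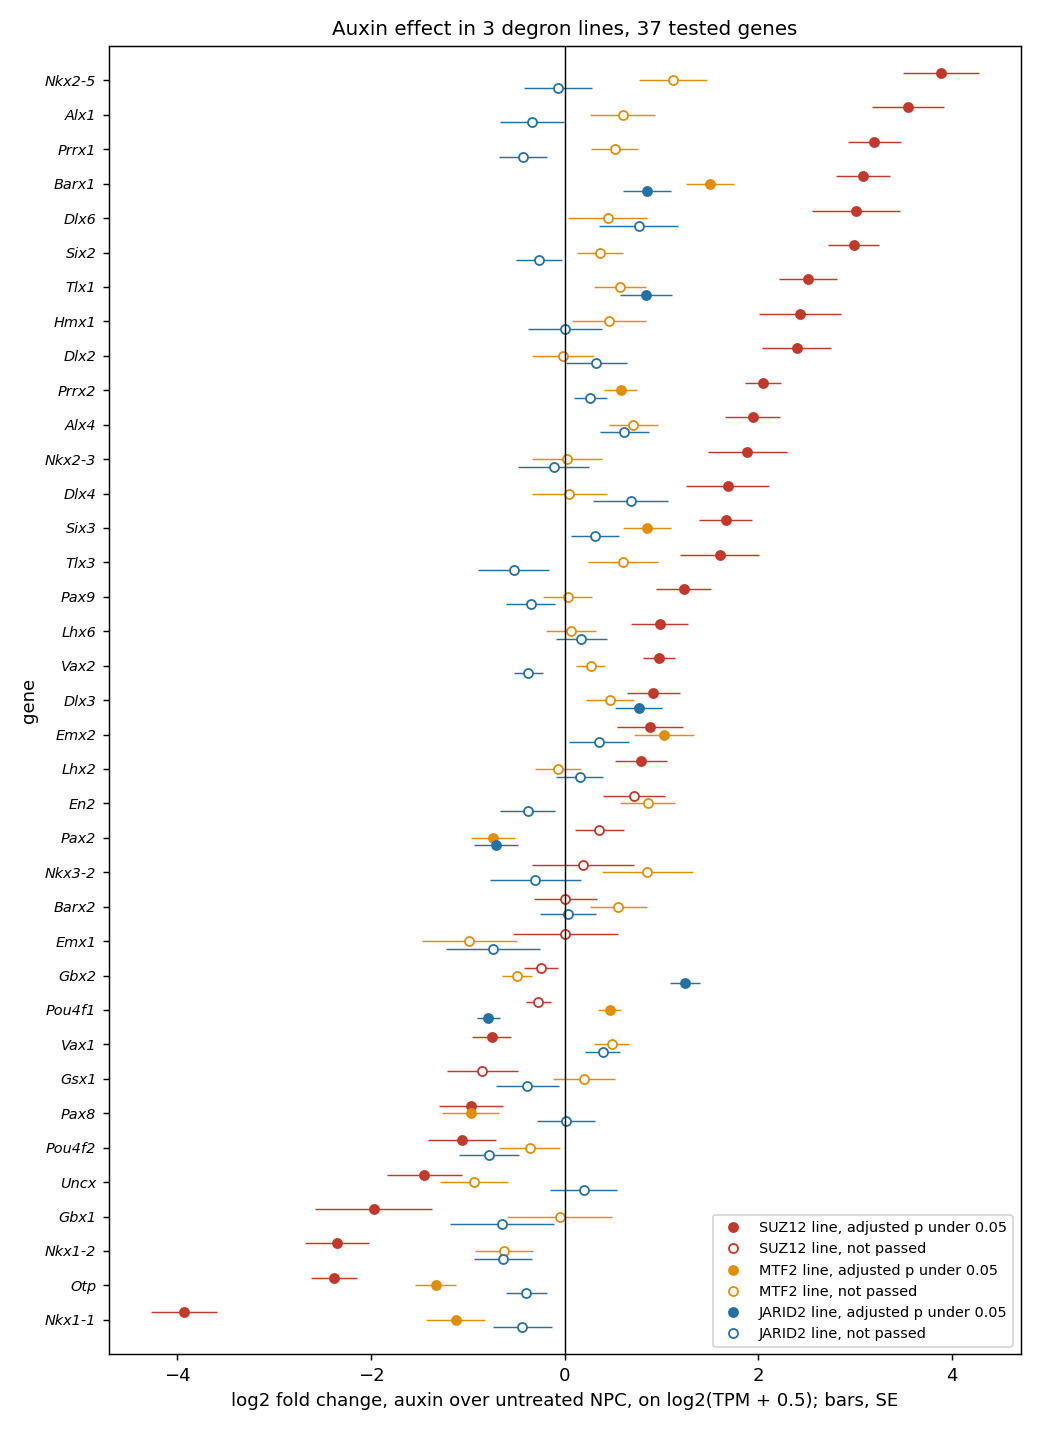
Log2 fold change of auxin over untreated NPC (x axis, on log2(TPM + 0.5), bars SE) for the 37 tested genes (y axis, ordered by the SUZ12 line) in the SUZ12, MTF2 and JARID2 lines, filled where the adjusted p was under 0.05. SUZ12 points run between -3.93 for Nkx1-1 and 3.89 for Nkx2-5, MTF2 points stay between -1.33 and 1.50, and the JARID2 point of Gbx2 at 1.24 is the highest of that line.

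Where these genes stand in normal differentiation was examined in the untreated untagged line, NPC against ESC. Of 38 tested genes 23 were higher and 6 lower in NPC, beside 76.1% of all genes called, 47.6% higher and 28.5% lower. The median change was 0.81 beside 0.28 for all genes, so changes are relative to that shift; with median-of-ratios scaling, which sets the median of all genes to 0, 20 were higher and 6 lower. Nkx1-1 had 8.08, 10.5 and 6.21 TPM in NPC, against 0, 1.23 and 0.317 TPM in ESC (log2 3.27 ± 0.35, adjusted p = 1.26e-10). Otp had 2.98, 2.68 and 2.22 TPM in NPC and 0 reads in the 3 ESC libraries, at least 55.8-fold higher (log2 2.64 ± 0.16, adjusted p = 2.10e-17), and Vax1 had 3.53, 2.98 and 3.34 TPM in NPC and 0 reads in ESC, at least 26.8-fold higher (log2 2.92 ± 0.15, adjusted p = 2.91e-19). Gbx1, Prrx2 and Pax2 rose by 2.76, 2.55 and 2.17. In all 6 genes the NPC libraries lay above every ESC library.

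Genes that fell in differentiation were already on in ESC, except Dlx5, which reached 1 TPM in only 5 of the 24 ESC libraries. Gbx2, which supports naive pluripotency in mouse ESC besides its hindbrain role, had 11.3, 11.3 and 10.1 TPM in NPC, against 84.3, 81.8 and 80 TPM in ESC (log2 -2.86 ± 0.12, adjusted p = 2.54e-22). Tlx3 had 1.90, 1.71 and 1.53 TPM, against 15.9, 23.9 and 15.3 TPM (log2 -3.07 ± 0.30, adjusted p = 1.96e-11). Both groups were wide apart. Lhx6, En2, Dlx5 and Nkx1-2 fell by 1.56, 1.48, 0.80 and 0.76.

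The differentiation and SUZ12 comparisons share no library. Of the 21 genes higher after SUZ12 loss, 12 rose in normal differentiation, 2 fell (Lhx6 and Tlx3) and 7 were not called; of all 3931 genes higher after SUZ12 loss, 17.8% rose and 65.5% fell. The 7 were Nkx2-5, Alx1, Barx1, Dlx2, Dlx4, Dlx6 and Hmx1. Of these, Alx1, Dlx4, Dlx6 and Hmx1 belong to the 5 genes tested in NPC only through the SUZ12 auxin libraries. A low level in untagged NPC was thus built into them, and Prrx1, the other of the 5, is among the 12 that rose. Nkx2-5 had 0.380, 0.877 and 0.917 TPM in untagged NPC, against 0, 1.91 and 1.97 TPM in ESC, so the groups overlapped. Of the 8 genes lower after SUZ12 loss, 6 rose in differentiation (Gbx1, Nkx1-1, Otp, Pou4f2, Uncx and Vax1), Nkx1-2 fell and Pax8 was not called (adjusted p = 0.065); of all 5437 lower genes, 88.9% rose and 3.83% fell. SUZ12 NPC with auxin thus lacked Nkx1-1 and Otp, which came on in untagged cultures, and held Nkx2-5, which did not.

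**Figure D4:**
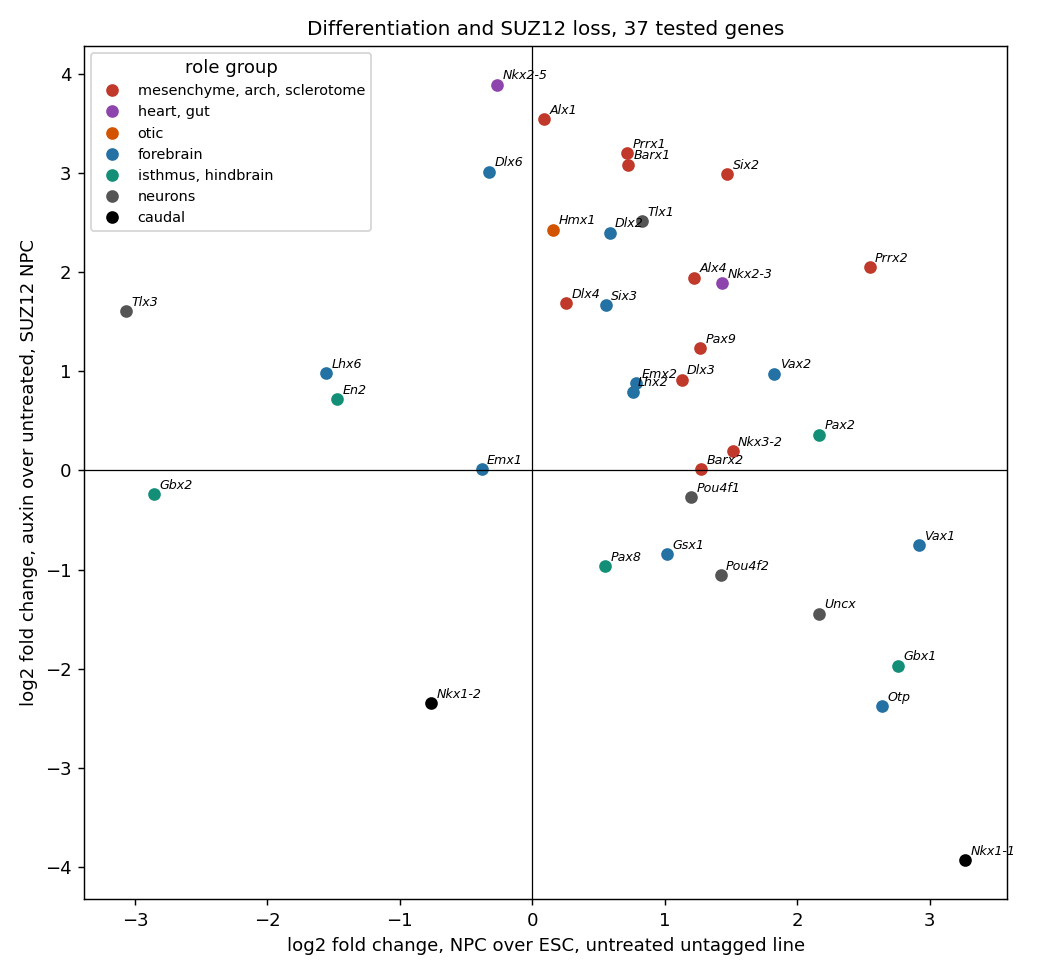
Log2 fold change of NPC over ESC in the untreated untagged line (x axis) against log2 fold change of auxin over untreated SUZ12 NPC (y axis) for the 37 genes tested in both, one point per gene, coloured by role. Mesenchymal and heart genes lie at or above 0 on the y axis, while Nkx1-1, Otp, Gbx1, Uncx and Vax1 lie at the lower right, having risen in differentiation and fallen after SUZ12 loss.

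In ESC, 12 hours of auxin moved few of these genes. In the SUZ12 line 2 of 20 tested were higher and 0 lower, beside 6.83% of all genes called, 5.89% higher and 0.94% lower. Nkx1-2 had 13.1, 11.7 and 10.9 TPM with auxin, against 9.72, 8.10 and 7.61 TPM untreated (log2 0.47 ± 0.13, adjusted p = 0.0329). Gbx2 had 109, 123 and 109.6 TPM, against 102, 96.1 and 96.2 TPM (log2 0.21 ± 0.07, adjusted p = 0.0482). Groups did not overlap in either gene, but both calls were lost with median-of-ratios scaling, and leaving out any 1 of the 6 libraries left 0 calls (auxin replicate 1 or 2, untreated replicate 2) or 1. In MTF2, JARID2 and untagged ESC 0 of the 20 passed in limma, beside 1.09%, 0.298% and 0.212% of all genes; an unadjusted p under 0.05 was reached by 4, 0 and 2 of the 20, and voom called 0 in each. With the untagged effect subtracted 0 passed in any line, beside 0.192% of all genes for SUZ12, 0.00662% for MTF2 and 0% for JARID2; without adjustment, 2, 1 and 1 of the 20 were under 0.05, and the voom test made 0 calls in each. Of the genes that rose most in SUZ12 NPC, Barx1 had 0.622, 2.30 and 1.41 TPM in SUZ12 ESC with auxin, against 0.745, 0.795 and 0.222 TPM untreated, and Nkx2-5 2.98, 2.24 and 1.35 TPM, against 1.78, 1.27 and 0.354 TPM, with overlapping groups, while Prrx1 had 0 reads in both.

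Untreated ESC lines differed in a few of the genes. Nkx1-2 was higher in MTF2 ESC, with 16.6, 13.8 and 15.5 TPM, against 6.99, 7.47 and 5.72 TPM in untagged ESC (log2 1.13 ± 0.13, adjusted p = 1.91e-06), and in JARID2 ESC, with 11.7, 12.2 and 11.3 TPM (log2 0.77 ± 0.13, adjusted p = 0.000553). In MTF2 ESC Pou4f2 was also higher (log2 1.16 ± 0.31, adjusted p = 0.0117), which made 2 of 20 beside 15.7% of all genes called, 7.32% higher and 8.39% lower. In JARID2 ESC Nkx1-2 was the 1 call, beside 6.31% of all genes called, 3.09% higher and 3.22% lower. Without MTF2 untreated replicate 1 the first count was 1, and without JARID2 untreated replicate 1 or untagged untreated replicate 2 the second was 2. In SUZ12 ESC Vax2 was lower (log2 -1.30 ± 0.32, adjusted p = 0.0451) and Gbx2 higher (log2 0.26 ± 0.07, adjusted p = 0.0475), beside 1.65% of all genes called, 0.47% higher and 1.18% lower, and leaving out any 1 of the 6 libraries left 0.

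The 13 genes that passed the filter in neither stage were low throughout. Lhx9 had 7 reads over all 47 libraries, and Barhl2, Gsx2, Barhl1, Nkx2-1, Lhx8, Six6 and Hmx3 had between 25 and 46. Hmx2, Pax1, Lbx1, Dlx1 and Pax5 had between 57 and 202. Lbx1, a dorsal interneuron and muscle precursor gene, had 1.74 and 0.940 TPM with auxin, against 0.217, 0.125 and 0.225 TPM untreated in SUZ12 NPC, the highest level of the 13, and its auxin libraries lay above the untreated ones. Nkx2-1, the ventral forebrain, lung and thyroid factor, had 0 and 0 TPM with auxin, against 0.301, 0.115 and 0.104 TPM untreated.

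Some of the values cannot be assigned to 1 transcript. Of the 51 genes 24 overlap an annotated gene on the other strand, among them Six3, Emx2, Tlx1, Gbx2, Pax2, Dlx6, Prrx1, Nkx1-2, Hmx1 and Alx4, and the strand setting of the counting is not given in the sources used here, so reads of such partners cannot be told apart. In total 10 pairs of the genes lie within 500 kb of each other, so neighbours such as Six2 and Six3 or Tlx1 and Lbx1 (75.7 kb apart on chromosome 19) are not independent in position.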

How the data were processed

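Polyadenylated RNA was measured by strand-specific (dUTP) RNA sequencing in 47 libraries. The values are the deposited TPM, made by the authors with STAR 2.6.1d on mm10 per the submitters' processing notes; which counter and gene models were used is not given in the sources used here. All sample columns were used (0 left out). Groups came from the labels; titles of MTF2 and JARID2 NPC name day 0, their other labels name NPC and 5 days, which were followed. The labels show 1 flow cell for all libraries, so no batch could be split.

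Whole reads were recovered from the steps of low TPM values for 100% of genes above 0, within 0.001 of a whole number, as the smallest whole numbers that give the values, so reads of a gene seen in few libraries may be too low; libraries came to 3.24 to 8.71 M reads; intervals and floors (3 reads) cover counting error only. Replicates differed by more than counting error (chi-square per degree of freedom 1.07 to 3.76).

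Tests used limma 3.58.1 (R 4.3.3) for genes that reach 1 TPM in 2 or more libraries (lmFit, eBayes with trend and robust, two-sided) on log2(TPM + 0.5) computed from the deposited TPM, all 8 groups of a stage in 1 fit, or all 16 groups for the stage comparison, with Benjamini-Hochberg adjustment over all genes tested. Genes are named by a rule: given in full are the called genes with the largest changes, up to 14 in SUZ12 NPC, 8 in MTF2 NPC, JARID2 NPC and differentiation and 5 elsewhere, then members next to another member on the chromosome and, by their reads, members below the filter; others were chosen after their values were seen. The genes and lists were chosen with earlier results of these data known. Gene positions are from GENCODE M21 and promoter windows from RefSeq, both on GRCm38, which is mm10. Figures were drawn with matplotlib 3.10.9. The tests were repeated with other pseudocounts (0.1 and 1), without the filter, with median-of-ratios scaling, with a replicate block, with limma's voom on the recovered reads (library sizes by median of ratios), with the compared groups alone and without each library in turn.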

Additional observations from a re-analysis of the deposited data

Results flagged for a closer look

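Effects of auxin that differ between lines by a test of the difference itself (limma contrasts, adjusted p under 0.05 over all genes) are listed here, as differences of log2 fold changes in NPC. Against the untagged line, the SUZ12 effect was higher by 4.12 for Nkx2-5, 3.65 for Alx1, 3.45 for Prrx1 and 3.24 for Six2, and the difference was -3.68 for Nkx1-1. Alx1 and Prrx1 were tested only because they are high in SUZ12 NPC with auxin, so that a SUZ12 excess was built into each of their differences given here. The MTF2 effect differed from the untagged one by 1.45 for Barx1 and -1.41 for Otp. The JARID2 effect differed from it by 1.57 for Gbx2 and -0.74 for Pou4f1. These 3 sets share the untagged libraries.

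Between tagged lines, the SUZ12 effect minus the MTF2 effect was 2.94 for Alx1, -2.81 for Nkx1-1, 2.77 for Nkx2-5, 2.68 for Prrx1 and 2.62 for Six2. The SUZ12 effect minus the JARID2 effect was 3.96 for Nkx2-5, 3.88 for Alx1, 3.63 for Prrx1, -3.50 for Nkx1-1 and 3.25 for Six2. Nkx1-1 was already lower in untreated JARID2 NPC than in untreated untagged NPC (log2 -3.14), which left little room for a fall with auxin in the JARID2 line. The MTF2 effect minus the JARID2 effect was -1.73 for Gbx2 and 1.25 for Pou4f1. Pou4f1 rose by 0.47 in MTF2 NPC (adjusted p = 0.0172) and fell in JARID2 NPC, while Gbx2 rose in JARID2 NPC and did not pass in MTF2 NPC (log2 -0.49, adjusted p = 0.0549).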

How the results depend on the processing

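Of 170 values (each gene called in a comparison), 0 changed direction and 115 kept their call in the alternatives that gave a value; 11 of the 24 counts of called genes kept within 1.5 times throughout. A pseudocount of 0.1 gave 5 calls in MTF2 NPC, 0 for MTF2 beyond the untagged line and 1 between untreated SUZ12 and untagged ESC, and a pseudocount of 1 gave 4 between the MTF2 and JARID2 effects. With no filter there were 0 calls in SUZ12 ESC, 0 between untreated SUZ12 and untagged ESC, 1 for MTF2 beyond the untagged line and 3 between untreated MTF2 and untagged NPC; median-of-ratios scaling gave 0, 1, 2 and 3 for these. The compared groups alone gave 1 for MTF2 beyond the untagged line and 0 between untreated SUZ12 and untagged NPC. The replicate numbers do not pair the libraries (the highest correlation of deviations was 0.085), and a fit with the replicate block gave 1 call in SUZ12 ESC, 0 between untreated SUZ12 and untagged ESC, 4 between the MTF2 and JARID2 effects and 29 in SUZ12 NPC. The voom test kept every count of these genes within that range, but over all genes it called 2283 in SUZ12 ESC, against 1031 in limma, 186 against 29 with the untagged effect subtracted there, 574 against 249 between untreated SUZ12 and untagged ESC and 338 against 134 between untreated SUZ12 and untagged NPC, so the shares of all genes given for these rest on the test used. Without 1 library, the calls ranged over 19 to 28 in SUZ12 NPC, 3 to 7 in MTF2 NPC, 2 to 5 in JARID2 NPC and 0 to 1 in SUZ12 ESC; over 15 to 23 and 0 to 3 for SUZ12 and MTF2 beyond the untagged line; over 13 to 22 between the SUZ12 and MTF2 effects; over 0 to 1 and 2 to 5 for untreated SUZ12 and MTF2 NPC; and over 0 to 0, 1 to 2 and 1 to 2 for untreated SUZ12, MTF2 and JARID2 ESC against the untagged line. A lone auxin library in SUZ12 NPC is then assumed to vary like the other groups. Leaving out either SUZ12 auxin library also takes Dlx4, Dlx6, Alx1, Prrx1 and Hmx1 below the filter, so the counts then leave them out. Of the 14 genes given in full for SUZ12 NPC, 13 were called in every alternative that gave a value, the exception being Gbx1; Alx1, Prrx1, Dlx6 and Hmx1 fall below the filter when either auxin library is left out and then gave none. In SUZ12 NPC Dlx3, Emx2, Lhx2, Lhx6, Pax8, Pou4f2 and Uncx, in differentiation Dlx5, Gsx1, Lhx2, Nkx1-2, Six3 and Tlx1, in MTF2 NPC Emx2, Six3, Pax2, Pax8, Nkx1-1, Pou4f1 and Prrx2, and in JARID2 NPC Barx1, Tlx1, Dlx3 and Pax2, lost their call in some alternatives; the cause was not tested. At 3.24 to 8.71 M reads a gene near 1 TPM rests on a few reads, which limits the 13 genes below the filter and the members near 1 TPM in either stage.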
